A study of Mus musculus with 15 samples.

Results

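The comparison asks how far the response of lung epithelium to β-aminopropionitrile (BAPN) departed from that of lung fibroblasts. BAPN is a small nitrile that blocks lysyl oxidase activity for good. The cells were primary mouse lung fibroblasts, used after 3 or more passages and 24 h of starvation, and primary alveolar type II (ATII) cells, kept 3 days in air-liquid culture until they formed a monolayer. Each was given vehicle (phosphate-buffered saline) or 1 mM BAPN for 24 h. All 15 arrays of the series entered the comparison: fibroblasts with vehicle (4 arrays) or BAPN (3 arrays), and ATII cells with vehicle (4 arrays) or BAPN (4 arrays). The BAPN effect is the mean log2 level with BAPN minus that with vehicle, and the difference is the effect in ATII cells minus the effect in fibroblasts. A value above 0 means that a transcript lay higher, relative to its own vehicle, in ATII cells than in fibroblasts. The labels give no strain, sex or age. They also leave unsaid if each replicate is its own animal or culture, so the p-values reflect only how these samples vary, possibly for technical reasons. Because each cell type had its own culture, cell type and culture cannot be told apart.

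Lysyl oxidases are copper-dependent amine oxidases that are secreted and act outside the cell. They oxidise lysine residues of collagen and elastin, and the aldehydes formed condense into the cross-links that stiffen the matrix. Fibroblasts make most of the fibrillar matrix of the lung, while ATII cells make surfactant and renew the alveolar epithelium.

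The cultures were checked against their markers. Cdh1 and the lung epithelial factor gene Nkx2-1 were above background on 4 of 4 vehicle ATII arrays and on 0 of 4 vehicle fibroblast arrays. The epithelial keratin genes Krt8 and Krt18 were above background on every fibroblast array too, with Krt18 at −2.17 to 3.45 with vehicle. Of 10 ATII markers, 8 were above background on every ATII array and 5 on every fibroblast array. In vehicle ATII cells the surfactant genes Sftpc, Sftpd, Sftpb and Sftpa1 had mean levels of 0.93, −0.13, −1.80 and −5.44. Sftpa1 was above background on 2 of these 4 arrays. The alveolar type I genes Aqp5, Ager, Hopx and Clic5 were at 2.46, −0.58, −0.89 and −2.69 there. Slc34a2, a phosphate transporter of type II cells, was above background on no array of either cell type. All 8 macrophage and leukocyte markers were above background on every fibroblast array, with a summed log2 level of 4.22 to 5.14 with vehicle. In vehicle ATII cells that sum was 2.11 to 2.52. All 7 fibroblast markers were above background on every ATII array. Their summed log2 level was 9.12 to 9.64 in vehicle ATII cells, against 9.41 to 9.91 in vehicle fibroblasts. The brightest of the 7 in both were the collagen genes Col1a1 and Col1a2, which overlapped between the cell types, as did Col3a1. Thy1, Dcn, Pdgfra and Pdgfrb were higher on every vehicle fibroblast array than on any vehicle ATII array. Thy1 was at 7.04 to 7.41 in vehicle fibroblasts and 3.97 to 4.63 in vehicle ATII cells, and Pdgfra at 1.89 to 2.69 and 0.09 to 1.00. With BAPN the summed level of 3 endothelial markers in fibroblasts was 2.57 to 3.05, against 3.27 to 3.61 with vehicle, and that of 5 alveolar type I markers was 6.50 to 7.06 against 6.05 to 6.45. The type I sum was almost all Pdpn, at 6.49 to 7.06 with BAPN and 6.04 to 6.44 with vehicle. The fibroblast groups of the dimmer Ager, Aqp5, Hopx and Clic5 overlapped. In ATII cells the endothelial and the type I sum overlapped between treatments. The part of these markers in the results was not tested. In RNA from whole cultures, fewer cells of a type and less RNA per cell cannot be told apart. Levels are log2 intensities relative to the 75th percentile of each array, which is 0, and 65.2% to 71.2% of the spots were well above background.

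No transcript passed the test of the difference. limma with Benjamini-Hochberg adjustment called 0 of 34287 features (0%) at an adjusted p under 0.05, where a feature is a gene or a probe that carries no gene symbol here. Without adjustment 4828 features (14.1%) had a p under 0.05, of which 3054 (8.91%) lay above 0 and 1774 (5.17%) below. That split depended on the scaling of the arrays, with 1076 above 0 and 3636 below under median scaling and 2194 and 2089 after quantile normalization. The same fit called 4588 features (13.4%) for the effect in fibroblasts, 618 higher (1.8%) and 3970 lower (11.6%). For the effect in ATII cells it called 0 (0%), with 3486 (10.2%) at an unadjusted p under 0.05. The fibroblast count was 1272 without fibroblast BAPN replicate 2, 2007 without BAPN replicate 4, and 2173 and 2247 without vehicle replicates 2 and 4. It was 341 on slide 1 alone, which held 1 fibroblast BAPN array, and 7627 on slide 2 alone. A call in fibroblasts beside no call in ATII cells therefore did not amount to a tested difference for any feature. Of the 3970 features that fell in fibroblasts, 90.9% were below 0 in ATII cells too, where 49.9% of all features were. Place on the array enters this share, as 95.7% of the 3970 lay on the right side (columns above the middle one). On that side 92.1% of them were below 0 in ATII cells, against 58.9% of all features there. On the left side 64.5% were, against 40.8%. Of the 618 that rose in fibroblasts, 49.0% were below 0 in ATII cells.

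The count of 0 depended on single arrays. Without ATII BAPN replicate 4, 755 features passed (2.2%), 716 above 0 (2.09%) and 39 below (0.114%). Of the 755, 732 (97.0%) lay on the right side of the array. Replicate 4 was the only ATII BAPN array on slide 2, so without it slide and treatment are partly mixed in ATII cells. When limma weighted each array by its quality, 2128 passed (6.21%), 1845 above 0 (5.38%) and 283 below (0.825%), and 1939 of them (91.1%) lay on the right side of the array (columns above the middle one). The lowest weights were those of fibroblast BAPN replicate 1 (0.319), ATII BAPN replicate 4 (0.347) and fibroblast vehicle replicate 4 (0.370). The 2 settings shared 668 features, which is 88.5% of the first set and 31.4% of the second. Without fibroblast BAPN replicate 1, 20 features passed, and without fibroblast vehicle replicate 1 or fibroblast BAPN replicate 2, 1 feature did.

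The design measured bright transcripts far better than dim ones. The median standard error (SE) of the difference was 0.32 on the log2 scale with 11 residual degrees of freedom. The 95% interval of the difference lay inside 2-fold in either direction for 45.3% of all features and inside 4-fold for 83.9%. Among the 11028 features brighter than the 75th percentile, 84.9% were bounded inside 2-fold. Among the 17833 features with a level under −2, 17.8% were.

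**Figure D1:**
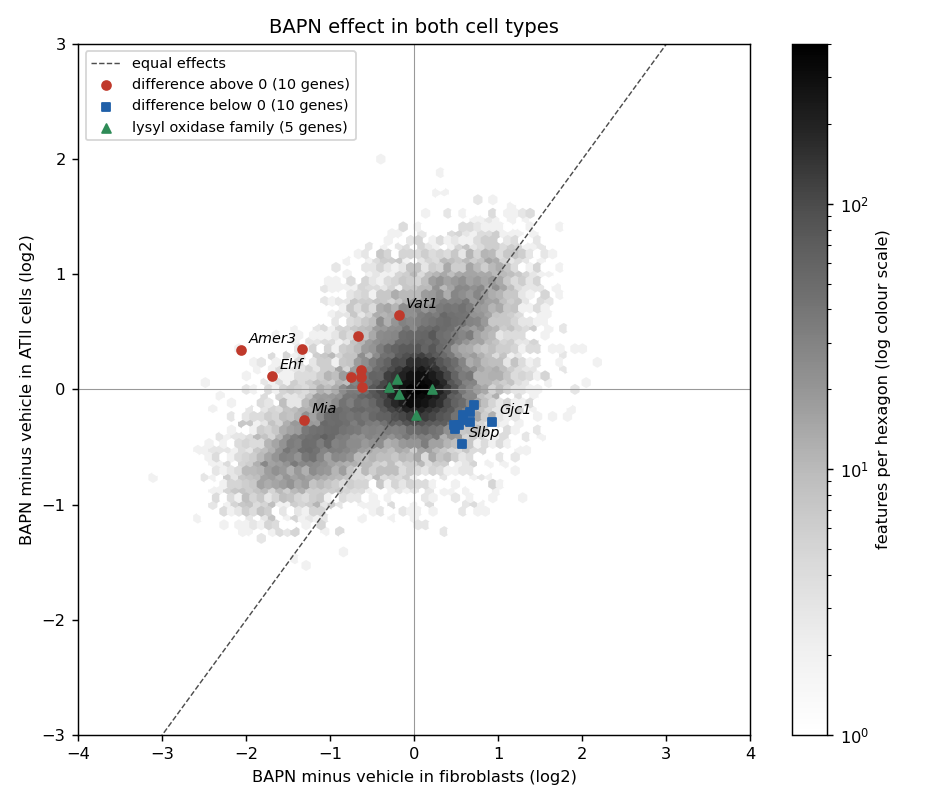
BAPN effect in fibroblasts (horizontal axis, log2) against that in ATII cells (vertical axis, log2) for all 34287 features, as hexagons shaded by the number of features on a log scale. The genes with a difference above 0 lie up and left of the dashed line of equal effects, and those with a difference below 0 lie down and right of it, with effects of 0.47 to 0.93 in fibroblasts and −0.47 to −0.13 in ATII cells.

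Both effects were related across dim transcripts and not across bright ones. Pearson's r between the effects was 0.52 over all 34287 features, and 62.5% of features had the same sign in both cell types. Over features brighter than the 75th percentile r was 0.01, over those between −2 and 0 it was 0.44, and over those under −2 it was 0.60. The effects share no array, but they share slides, spot positions and features, so these values are descriptions. On slide 1 alone r was 0.039 and on slide 2 alone 0.75.

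The place of a spot on the array moved with these values. On slide 2, which held 1 of the 4 ATII BAPN arrays (replicate 4) and 2 of the 3 fibroblast BAPN arrays, dim features in the right side of the columns had a median effect of −0.85 in fibroblasts and −0.70 in ATII cells. On the left side the medians were 0.58 and 0.77. On slide 1 the fibroblast medians were −0.41 on the right and −0.39 on the left, and the ATII medians −0.09 and −0.04. Over all arrays the median difference of dim features was 0.46 on the right and 0.12 on the left. Of the 4588 features called in fibroblasts, 4333 (94.4%) lay on the right side, which held 50.3% of all tested. Of the 4828 features with an unadjusted p under 0.05 for the difference, 70.2% lay there. After a correction for spot position within bands of columns that depends on intensity, 0 features passed for the difference by limma, 4933 had an unadjusted p under 0.05, and r between the effects was 0.32. Within each slide, vehicle and BAPN arrays of both cell types also lay at different positions on the glass, so position on the slide and treatment cannot be told apart. Every fibroblast array lay in row 1 of its slide, and every ATII array but vehicle replicate 1 lay in row 2. Cell type and slide row can therefore hardly be told apart either.

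**Figure D2:**
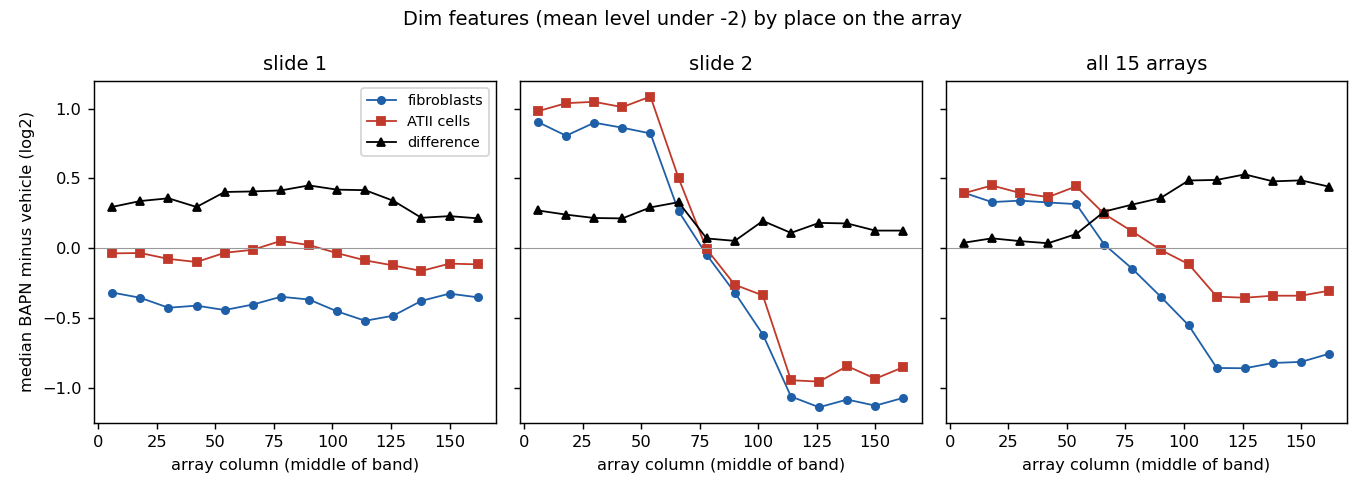
Median BAPN effect (log2) of features with a mean level under −2, by column of the array in bands of 12 columns, for slide 1, slide 2 and all 15 arrays. Circles are fibroblasts, squares ATII cells and triangles the difference; on slide 2 both effects run from above 0 on the left to below 0 on the right, while on slide 1 they do not.

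Of the 10 genes with the smallest p above 0, 9 fell in fibroblasts and none passed in ATII cells. The genes are Mia, Zyg11b, Vat1, Amer3, Ehf, Tmem178b, Matk, Tm6sf2, Serac1 and Fam24b, with differences of 0.64 to 2.40 and an adjusted p of 0.173 each. The 9 that fell had an adjusted p under 0.05 in fibroblasts, against 11.6% of all features, and fibroblast groups that did not overlap, against 17.6% of all features with BAPN lower. The effects in ATII cells were −0.27 to 0.65, and the ATII groups of Vat1 and Tm6sf2 did not overlap, against 3.2% of all features with BAPN higher. All 10 passed for the difference without ATII BAPN replicate 4 and with array weights, where 2.2% and 6.21% of all features passed. As the genes were chosen by the p of this same difference, these counts describe the choice and support nothing. On slide 1 alone the differences were 0.60 to 1.83 and on slide 2 alone 0.68 to 2.48. In all, 8 of the 10 had their spot on the right side of the array, and after the intensity-dependent position correction their differences were 0.64 to 2.29.

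Mia, which encodes a small secreted protein, had the smallest p. Its probe, whose first 30 of 60 bases are printed to identify what was measured, lies at chr7:27964763-27964822 of mm9 on the minus strand.
Mia probe: ctaccgctatccctgcagttacccttccgg
The levels of Mia were 0.12, 0.30, 0.18 and 0.23 in vehicle fibroblasts and −0.95, −1.21 and −1.15 with BAPN. ATII levels were 0.49, 0.73, 0.85 and 0.69 with vehicle and 0.52, 0.46, 0.26 and 0.45 with BAPN. All 3 fibroblast BAPN arrays were lower than every other array, while the ATII groups overlapped. Mia fell 2.48-fold in fibroblasts (log2 −1.31 ± 0.11, SE; limma adjusted p = 0.000653) and its effect in ATII cells was −0.27 ± 0.11 (limma adjusted p = 0.474). The difference was 1.04 ± 0.16 (95% interval 0.70 to 1.37).

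Amer3, whose product binds the APC tumour suppressor at the membrane, had the largest of these differences. Its levels in vehicle fibroblasts were −0.80, −0.57, −0.53 and 0.24, and with BAPN −1.92, −3.06 and −2.45. ATII cells had levels of −1.16, −1.03, −0.66 and −1.52 with vehicle and −0.33, −0.76, −1.39 and −0.54 with BAPN. The fibroblast groups stood apart and the ATII groups overlapped. The difference was 2.40 ± 0.44 (SE), with 1.62 on slide 1 and 2.48 on slide 2.

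Ehf, an epithelial transcription factor gene of the ETS family, lay near the 75th percentile in ATII cells and was dim in fibroblasts. Vehicle fibroblasts had levels of −2.66, −2.45, −2.74 and −2.13, and BAPN fibroblasts −3.55, −4.55 and −4.47. Vehicle ATII cells had −0.02, −0.10, −0.06 and −0.47, and BAPN ATII cells 0.38, −0.26, −0.07 and −0.24. The fibroblast groups stood apart and the ATII groups overlapped. The difference was 1.81 ± 0.34, with 0.85 on slide 1 and 2.44 on slide 2. A dimmer second probe of Ehf, on the left side of the array, gave −0.69.

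Vat1, which encodes a vesicle membrane protein, was the only one of the 10 whose effect was larger in ATII cells. Its levels in ATII cells were 2.63, 2.56, 2.65 and 2.77 with vehicle and 3.25, 3.23, 3.48 and 3.23 with BAPN, with no overlap. In fibroblasts they were 3.78, 4.11, 3.98 and 4.00 with vehicle and 3.66, 3.85 and 3.84 with BAPN, which overlapped. The ATII effect was 0.65 ± 0.10 (limma adjusted p = 0.258) and the difference 0.83 ± 0.15 (SE). The spot of Vat1 lies on the left side of the array.

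Among the others, Tm6sf2, a gene of lipoprotein loading in liver, had no overlap in either cell type, with effects of −0.67 in fibroblasts and 0.46 in ATII cells. Tmem178b had a difference of 1.68 ± 0.32 (SE). The differences of Zyg11b, a substrate receptor of a ubiquitin ligase, Matk, a kinase that restrains Src family kinases, Serac1 and Fam24b were 0.64 to 0.86. Other probes of these genes did not all move alike. On the left side of the array, the second probe of Zyg11b gave −0.31 and the other Fam24b probes 0.13 and −0.10. A second probe of Serac1, on the right side, gave 0.19.

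**Figure D3:**
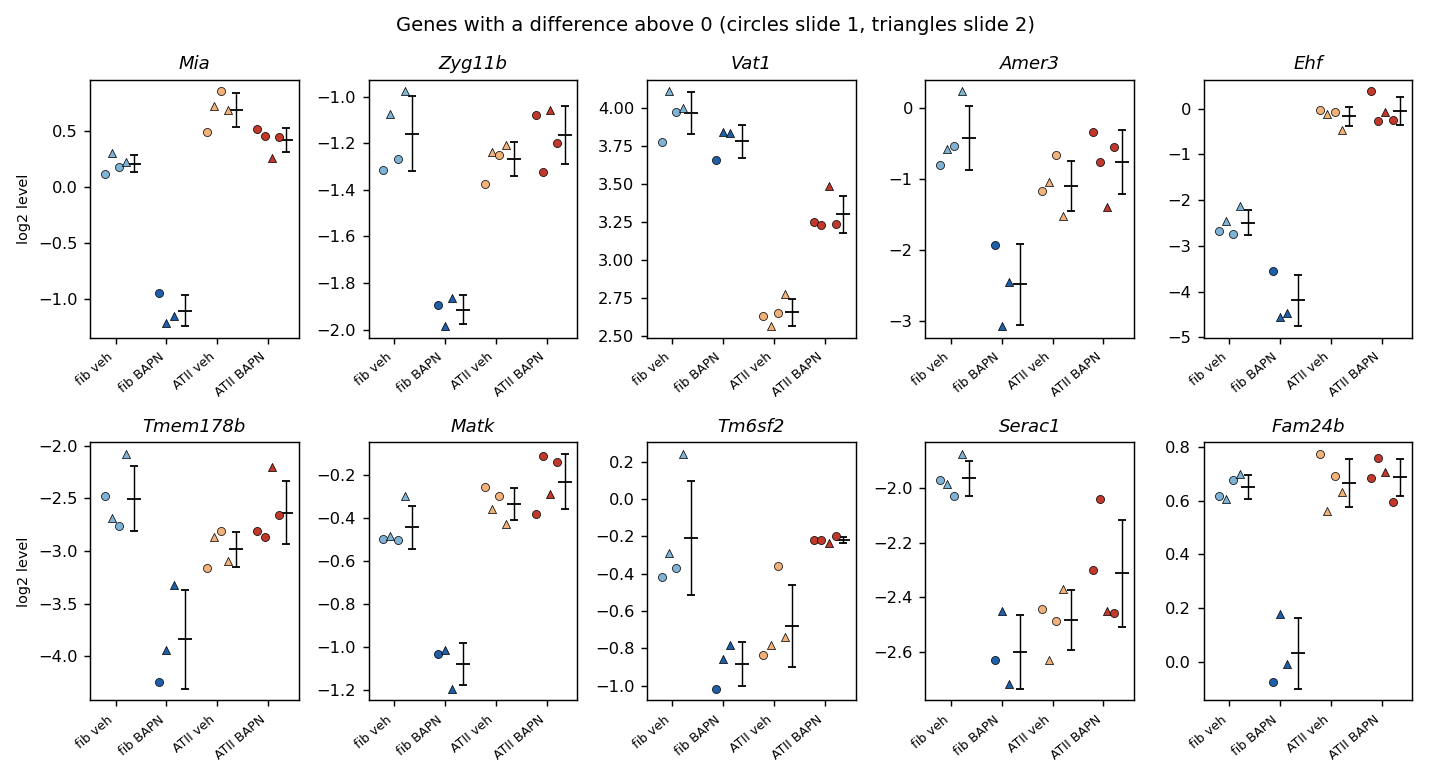
Log2 level of the 10 genes with a difference above 0 on every array, by group, with circles for slide 1 and triangles for slide 2 and bars for the mean and SD. For 9 genes the fibroblast BAPN arrays lie below all fibroblast vehicle arrays, and Vat1 is the exception.

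The lipase-related gene Pnliprp1, named after its values were seen, came closest to the threshold (limma adjusted p = 0.0531). Its levels were −5.16, −4.38, −4.94 and −4.18 in vehicle fibroblasts and −7.53, −7.71 and −7.34 with BAPN. In ATII cells they were −4.22, −4.33, −3.68 and −4.07 with vehicle and −3.98, −3.96, −4.61 and −3.88 with BAPN. The BAPN fibroblasts stood apart, and none of their arrays was well above background, and 1 of the 4 vehicle arrays was not either. The fitted difference of 2.83 ± 0.34 (SE) is therefore not a measured size. It passed after the position correction that ignores intensity and in 1 setting that left out an array.

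The 10 genes with the smallest p for a difference below 0 were taken in the same way. All rose in fibroblasts, and none passed in ATII cells. They are Mis18a, Dbf4, Psmd14, Dhx15, Zbtb38, Gjc1, Slbp, Gmps, Socs6 and Taf5, with differences of −1.21 to −0.78 and an adjusted p of 0.173 each. The rise in fibroblasts was 0.47 to 0.93 with an adjusted p under 0.05 (background 1.8%), and the fibroblast groups did not overlap, against 6.23% of all features with BAPN higher. Their effects in ATII cells were −0.47 to −0.13, and the ATII groups of 7 genes did not overlap, against 5.87% of all features with BAPN lower. All 10 passed for the difference without ATII BAPN replicate 4 (2.2% of all features) and with array weights (6.21%), which again describes genes chosen on this difference. Their differences were −1.22 to −0.68 on slide 1 and −1.26 to −0.68 on slide 2. Every one had the same sign on both slides, which the choice by p over these same arrays favours. All 10 spots lay on the right side of the array, and after the intensity-dependent position correction the differences were −1.17 to −0.76.

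Mis18a, whose product helps to load the centromeric histone, had the smallest p in this direction. The first 30 of the 60 bases of its probe identify the target, at chr16:90720162-90720221 of mm9 on the minus strand.
Mis18a probe: ggaagaagtcctgacagccctgcaaaagaa
Its levels were 1.31, 1.09, 0.99 and 0.92 in vehicle fibroblasts and 1.64, 1.71 and 1.60 with BAPN. ATII levels were 1.01, 1.03, 0.99 and 1.01 with vehicle and 0.66, 0.83, 0.81 and 0.70 with BAPN. Neither cell type overlapped between treatments, and the directions were opposite. The effects were 0.57 ± 0.10 in fibroblasts (limma adjusted p = 0.00789) and −0.26 ± 0.10 in ATII cells (limma adjusted p = 0.474), and the difference was −0.84 ± 0.14 (SE). A second probe of Mis18a gave −0.54.

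Slbp, which encodes the protein that binds the stem-loop of histone mRNAs, had levels of 0.97, 0.75, 0.71 and 0.45 in vehicle fibroblasts and 1.25, 1.59 and 1.01 with BAPN. ATII cells had levels of 0.69, 0.38, 0.49 and 0.69 with vehicle and 0.05, 0.25, −0.03 and 0.08 with BAPN. Both cell types again had groups apart, in opposite directions. The difference was −1.03 ± 0.21 (SE), and a second probe, on the left side of the array, gave −0.98.

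Gjc1, the gene of a gap junction connexin, had the largest difference of the 10. Its levels were 1.07, 0.94, 1.03 and 0.44 in vehicle fibroblasts and 2.04, 1.77 and 1.59 with BAPN. In ATII cells they were 0.62, 0.65, 0.19 and 0.56 with vehicle and 0.11, 0.08, 0.37 and 0.35 with BAPN, which overlapped. The difference was −1.21 ± 0.24 (SE).

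Psmd14, the deubiquitinase subunit of the proteasome lid, had levels of 2.86, 2.80, 2.77 and 2.50 in vehicle fibroblasts and 3.29, 3.32 and 3.18 with BAPN. ATII levels were 3.08, 2.82, 3.12 and 2.98 with vehicle and 2.57, 2.71, 2.76 and 2.74 with BAPN. No group overlapped its vehicle, and the difference was −0.84 ± 0.16 (SE).

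Of the remaining genes, Dbf4 activates the kinase that fires replication origins, Gmps makes guanosine monophosphate, Taf5 is a subunit of the general transcription factor TFIID, and Dhx15 is an RNA helicase of splicing. Their differences were −0.81, −0.78, −0.94 and −0.85. The differences of Zbtb38, a zinc finger gene whose product binds methylated DNA, and Socs6, of the cytokine signalling suppressors, were −0.86 and −0.83. Probes disagreed for Zbtb38, where the others gave 0.04, −0.33 and −0.70. Other probes also gave smaller differences for Gmps (−0.13 and −0.56) and Socs6 (−0.14 and −0.31). A further Socs6 probe, above background on no array, gave −0.38.

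**Figure D4:**
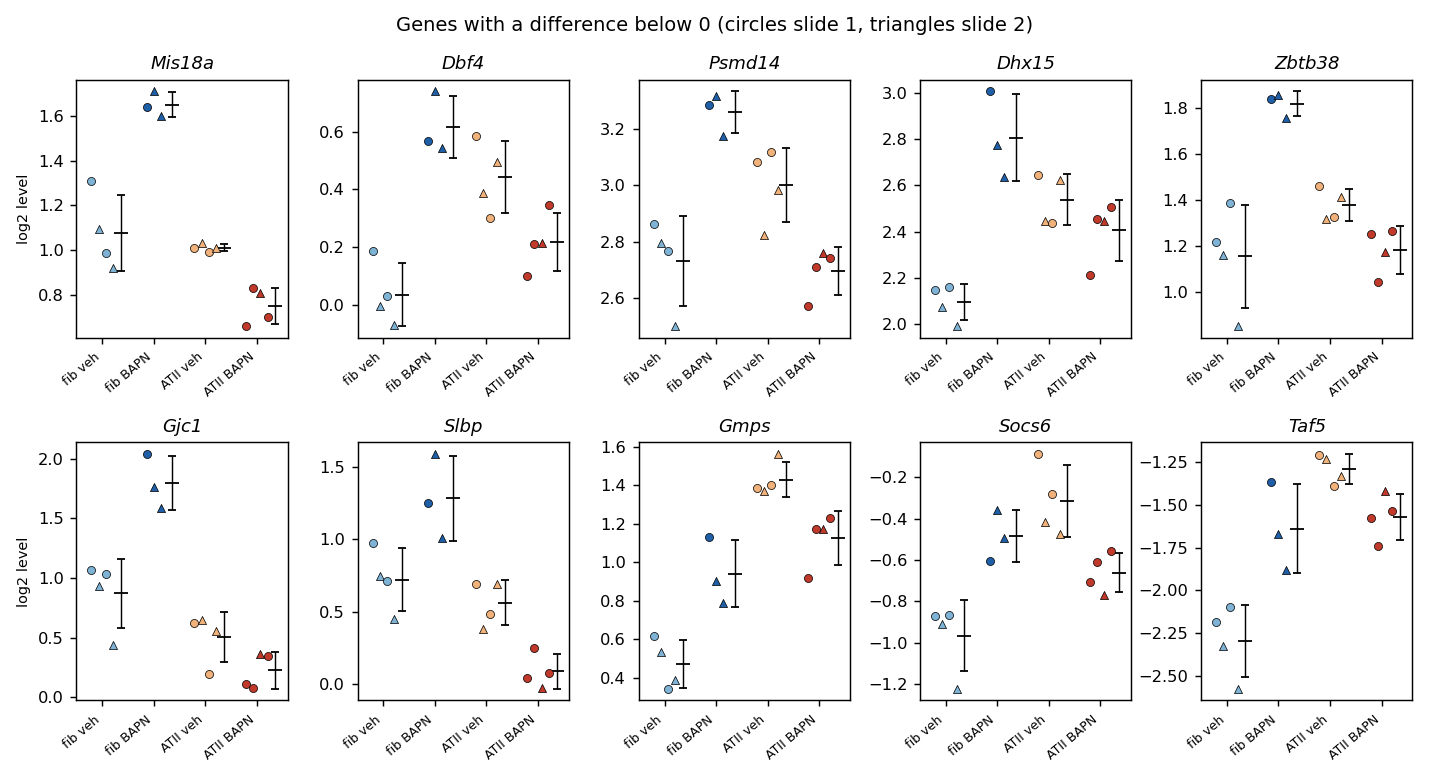
Log2 level of the 10 genes with a difference below 0 on every array, by group, with circles for slide 1 and triangles for slide 2 and bars for the mean and SD. In fibroblasts every BAPN array lies above every vehicle array for each gene, and in ATII cells the BAPN means are lower than the vehicle means.

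The lysyl oxidases themselves, the targets of BAPN, gave no difference that passed. Of the 5 family members, 3 lay above 0 and 2 below, with differences of −0.24 to 0.33 and adjusted p-values of 0.509 to 0.883. The groups of all 5 overlapped in both cell types, while 23.8% of all features had no overlap in fibroblasts and 9.07% had none in ATII cells. Lox, the founding member, had levels of 4.46, 4.17, 4.52 and 4.53 in vehicle fibroblasts and 4.83, 4.12 and 4.36 with BAPN. In ATII cells it had 3.92, 4.00, 4.09 and 4.20 with vehicle and 3.84, 3.97, 3.87 and 3.64 with BAPN. Its difference was −0.24 (95% interval −0.71 to 0.24), which bounds the effects of Lox inside 2-fold of each other. A second Lox probe gave 0.14.

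Loxl1, which acts on elastin, had levels of 5.50, 5.99, 5.55 and 6.08 in vehicle fibroblasts and 5.34, 5.53 and 5.55 with BAPN. In ATII cells it had 5.12 to 5.48 with vehicle and 5.20 to 5.40 with BAPN. Its difference was 0.33 (95% interval −0.14 to 0.79). The intervals of Loxl3 (−0.56 to 0.15) and Loxl4 (−0.51 to 0.78) also lay inside 2-fold. Loxl4 was below 0 under median scaling (−0.074). Other probes gave −0.11 for Loxl4, 0.04 for Loxl1, and 0.43 and 0.35 for Loxl2. Loxl2 had levels of 5.91, 4.30, 5.78 and 5.89 in vehicle fibroblasts and 5.84, 4.32 and 5.63 with BAPN, so that the replicates numbered 2 were low in both groups. Its interval ran from −0.90 to 1.49, and without fibroblast BAPN replicate 2 its difference was −0.18. Of the 9 tested genes that activate or dock lysyl oxidases, such as Bmp1, which cleaves the propeptide, 6 lay above 0 and 3 below, and 0 had an unadjusted p under 0.05 in limma.

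Genes of the matrix that lysyl oxidases act on had medians near 0. Of 16 collagen chain genes, 7 lay above 0 and 9 below, with a median difference of −0.10 and 1 at an unadjusted p under 0.05, against 14.1% of all features. Of 14 elastic fibre genes, 6 lay above 0 and 8 below, with a median of −0.11 and 0 at that p. Of 15 TGF-beta targets, 6 lay above 0 and 9 below (median −0.08), and of 10 YAP and TAZ targets 6 above and 4 below (median 0.08). Contractile genes, which were bright, leaned the other way, with 12 of 14 above 0 against 42.7% of bright features, and 64.3% above 0 on both slides against 28.7%. Their median was 0.10, and −0.11 under median scaling. The median of all features was 0.09 and that of features brighter than the 75th percentile −0.05. Median scaling moved the median of all features to −0.12 and quantile normalization to 0.02, so list medians of this size depend on the scaling.

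Cell cycle genes lay below 0 as a list. Of 26 tested members 23 were below 0 and 3 above, with a median difference of −0.34, where 57.3% of bright features were below 0. The median effects were 0.27 in fibroblasts and −0.08 in ATII cells, and in 16 genes the fibroblast effect was above 0 and the ATII effect below. Adjusted calls were 0 by limma and 0 with array weights, and 7 members had an unadjusted p under 0.05, all below 0, where 5.17% of all features and 10.3% of bright features were below 0 at that p. Slide 1 and slide 2 gave medians of −0.40 and −0.33, and 21 genes were below 0 on both (80.8%, against 36.1% of bright features). The list was below 0 in 13 of 14 members on the left side of the array and 10 of 12 on the right, and its median after the intensity-dependent position correction was −0.34. Under median scaling the list median was −0.55.

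Cdk1, the kinase that drives entry into mitosis, had levels of 1.89, 1.56, 1.43 and 2.05 in vehicle fibroblasts and 2.62, 1.87 and 2.21 with BAPN. ATII cells had levels of 1.50, 1.65, 1.23 and 1.33 with vehicle and 1.42, 1.05, 1.27 and 1.48 with BAPN. Both pairs of groups overlapped, and the difference was −0.62 ± 0.27 (limma adjusted p = 0.325). Ttk, a kinase of the spindle checkpoint, had the smallest p of the list, with effects of 0.14 in fibroblasts and −0.47 in ATII cells and a difference of −0.61 ± 0.22 (limma adjusted p = 0.265). Its ATII levels were −2.34, −2.12, −2.58 and −2.38 with vehicle and −2.81, −2.74, −3.11 and −2.63 with BAPN, which did not overlap. Bub1b, of the same checkpoint, and the proliferation marker gene Mki67 had differences of −0.55 ± 0.22 and −0.58 ± 0.24.

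Genes of protein folding in the endoplasmic reticulum (ER), the targets of the unfolded protein response, also lay below 0. Of 22 tested members 19 were below 0 and 3 above, with 57.3% of bright features below 0. The median difference was −0.28, with median effects of 0.20 in fibroblasts and −0.10 in ATII cells. Adjusted calls were 0 by limma and 1 with array weights (Edem1; 6.21% of all features). At an unadjusted p under 0.05 were 6 members, all below 0, against 5.17% of all features and 10.3% of bright ones. The slide medians were −0.28 and −0.22, and 18 genes (81.8%) were below 0 on both slides. On the left side 10 of 11 members were below 0 and on the right 9 of 11.

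Edem1, which routes misfolded glycoproteins to degradation, had levels of 2.57, 2.40, 2.42 and 1.83 in vehicle fibroblasts and 3.04, 2.79 and 2.53 with BAPN. In ATII cells it had 2.98 to 3.13 with vehicle and 2.56 to 2.76 with BAPN. The ATII groups stood apart, and the fibroblast groups overlapped. The difference was −0.91 ± 0.23 (limma adjusted p = 0.173). The disulfide isomerase genes Pdia3 and Pdia4 had differences of −0.70 ± 0.20 and −0.61 ± 0.18. Pdia4 rose in fibroblasts by 0.54 (limma adjusted p = 0.0215), while its ATII effect was −0.08.

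The promoters of 2 members of each list are shown because most members of both lists lay below 0 and their promoters share motifs known to control such genes. Each is the 250 bases before the first listed transcription start in RefSeq (GRCm38.p6), 5′ to 3′ on the strand of the gene. Capitals mark the CCAAT box (CCAAT), bound by NF-Y, and, in the cell cycle genes, TTTGAA, a core of the cell cycle homology region. In the ER genes they also mark the fixed letters of the ER stress element which holds a CCAAT box and, downstream of it, CCACG. Both strands were searched. Cdk1 lies at chr10:69352913-69353162 and Bub1b at chr2:118597961-118598210, with Pdia4 at chr6:47813513-47813762 and Hsp90b1 at chr10:86705445-86705694.
Cdk1: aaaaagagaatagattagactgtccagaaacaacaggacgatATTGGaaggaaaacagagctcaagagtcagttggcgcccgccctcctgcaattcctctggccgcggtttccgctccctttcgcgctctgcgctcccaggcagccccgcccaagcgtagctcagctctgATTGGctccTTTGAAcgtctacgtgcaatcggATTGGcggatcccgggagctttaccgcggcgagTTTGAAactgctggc
Bub1b: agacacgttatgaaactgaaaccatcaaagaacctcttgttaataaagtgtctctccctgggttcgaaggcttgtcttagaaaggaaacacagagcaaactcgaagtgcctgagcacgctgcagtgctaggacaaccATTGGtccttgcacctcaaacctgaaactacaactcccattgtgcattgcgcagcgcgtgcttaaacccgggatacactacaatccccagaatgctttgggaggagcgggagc
Pdia4: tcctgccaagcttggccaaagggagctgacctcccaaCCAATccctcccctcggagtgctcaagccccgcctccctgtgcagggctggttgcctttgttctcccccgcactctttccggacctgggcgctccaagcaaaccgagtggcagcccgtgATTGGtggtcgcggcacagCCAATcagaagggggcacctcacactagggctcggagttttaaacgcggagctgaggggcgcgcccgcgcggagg
Hsp90b1: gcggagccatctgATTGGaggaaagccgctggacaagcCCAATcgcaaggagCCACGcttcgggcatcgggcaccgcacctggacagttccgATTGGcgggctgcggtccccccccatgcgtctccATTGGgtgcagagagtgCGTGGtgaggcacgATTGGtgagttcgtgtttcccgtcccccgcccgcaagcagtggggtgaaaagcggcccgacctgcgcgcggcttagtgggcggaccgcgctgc
A CCAAT box was present in 20 of 23 cell cycle promoters (87.0%) and 17 of 19 ER promoters (89.5%), against 34.5% of 27025 promoters. TTTGAA was present in 7 of 23 (30.4%) and 0 of 19, against 16.3%. The ER stress element was in 8 of 19 ER promoters (42.1%) and 0 of 23 cell cycle promoters, against 0.122%. Hsp90b1, an ER chaperone gene, had levels of 6.72, 6.69, 6.80 and 6.77 in vehicle fibroblasts and 7.38, 6.84 and 6.95 with BAPN, and 6.92, 7.11, 7.13 and 7.02 against 6.69, 6.93, 6.84 and 7.03 in ATII cells. These matches describe the sequences and say nothing of what acted on them here.

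**Figure D5:**
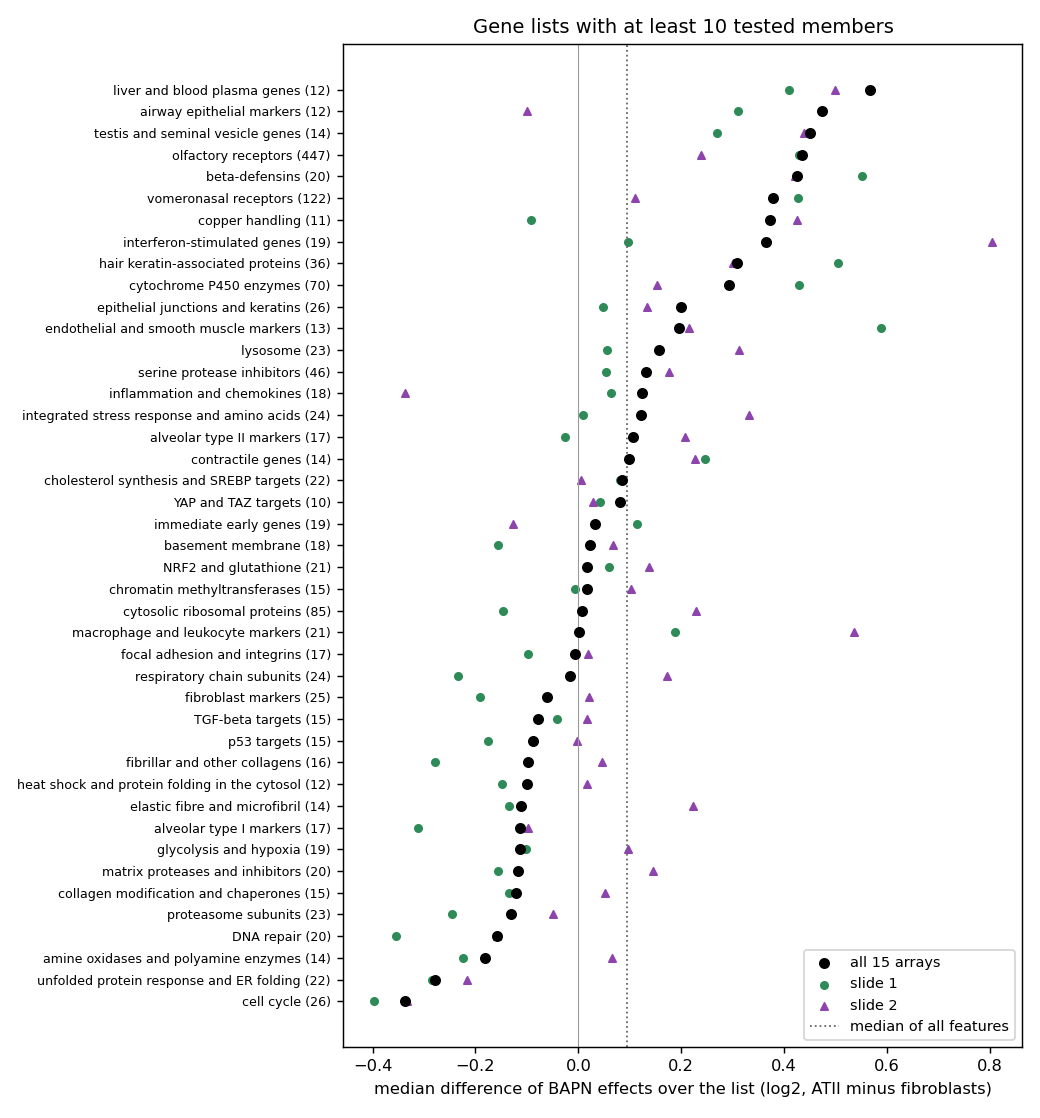
Median difference of BAPN effects (log2, ATII minus fibroblasts) over each gene list with at least 10 tested members, whose number is in brackets. Black circles are all 15 arrays, green circles slide 1, triangles slide 2 and the dotted line the median of all features; cell cycle genes have the lowest median, −0.34, and both slides lie beside it.

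Proteasome and DNA repair genes leaned the same way with less uniformity. Of 23 proteasome subunit genes 16 were below 0 and 7 above (median −0.13), where 57.3% of bright features were below 0. At an unadjusted p under 0.05 were 4 members (17.4%), all below 0, against 10.3% of bright features. Psmb2 and Psma6, subunits of the core particle, had differences of −0.77 ± 0.23 and −0.46 ± 0.14. The slide medians of the list were −0.25 and −0.05. On both slides 10 genes (43.5%) were below 0, against 36.1% of bright features. Of 20 DNA repair genes 16 were below 0 (median −0.16), where 41.1% of all features and 57.3% of bright ones were. Brca1, a gene of homologous recombination named after its values were seen, had levels of −4.20, −4.52, −4.67 and −4.73 in vehicle fibroblasts and −3.94, −3.47 and −4.03 with BAPN. In ATII cells it had −4.76, −5.04, −5.16 and −5.14 with vehicle and −6.29, −7.34, −6.00 and −6.18 with BAPN. Neither cell type overlapped, but Brca1 was well above background on 0 of 4 ATII BAPN arrays. The fitted difference of −2.15 ± 0.37 (limma adjusted p = 0.173) is therefore not a measured size.

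Lists of dim transcripts had medians above 0 whose size depended on the scaling. Of 1078 olfactory receptor genes, a family used for smell, 447 passed the filter on dim features and 173 were well above background on all arrays. A gene could pass through the group in which it was high, so the counts that follow describe the genes that passed and not the family. Of the 447, 334 were above 0, with a median difference of 0.44 and a median level of −4.42, and the median was 0.23 after quantile normalization and 0.22 under median scaling. Their median difference was 0.70 on the right side of the array and 0.12 on the left. All 17833 features with a level under −2 had a median of 0.26, which was 0.04 after quantile normalization and 0.05 under median scaling, and 68.2% of them were above 0. Of the 12 of 17 liver and plasma genes that passed the filter 11 were above 0 (median 0.57), and 10 of these 12 spots lay on the right side. Of the 122 of 262 vomeronasal receptor genes that passed 91 were above 0 (median 0.38).

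Of 26 epithelial junction and keratin genes, 17 were well above background on all arrays. Others, such as Cdh1, were at background in fibroblasts, so the median of the list (0.20, and −0.01 under median scaling) is not read as a result. Cldn4, which encodes a tight junction claudin, had a difference of 2.27 ± 0.54 (SE). Its levels were −2.26, −1.42, −1.56 and −0.66 in vehicle fibroblasts and −3.28, −4.22 and −3.43 with BAPN, and 4.18, 3.40, 3.35 and 2.64 against 3.82, 3.72, 2.96 and 3.49 in ATII cells. The fibroblast groups stood apart and those of ATII cells, where the gene was bright, overlapped. Of 19 interferon-stimulated genes, 12 of them above background on all arrays, 15 were above 0 (median 0.36). The median level of the list was −2.08, and 68.2% of features with a level under −2 were above 0. Its slide medians were 0.10 and 0.80. In this list the largest difference was that of the antiviral gene Rsad2 (4.29 ± 1.15, SE), which was above background on 1 of 3 BAPN fibroblast and 2 of 4 BAPN ATII arrays.

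Copper handling genes, which carry or bind the metal that lysyl oxidases need, had 8 of 11 members above 0, where 42.7% of bright features were. Their median was 0.37, with slide medians of −0.09 and 0.42. Mt1, the metallothionein gene that binds copper and zinc, had levels of 5.92, 5.96, 5.76 and 6.04 in vehicle ATII cells and 6.76, 6.41, 6.81 and 6.68 with BAPN, with no overlap. In fibroblasts the levels were 5.94, 6.18, 6.25 and 6.65 with vehicle and 6.72, 6.09 and 6.04 with BAPN, which overlapped. Its difference was 0.72 ± 0.26 (limma adjusted p = 0.261), with 0.15 on slide 1 and 1.16 on slide 2. Of 23 lysosome genes 16 were above 0 (median 0.16, and −0.06 under median scaling), where 42.7% of bright features were. On both slides 13 (56.5%) were above 0, against 28.7% of bright features. Cytosolic ribosomal protein genes, 45 above 0 and 40 below, had a median of 0.01.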

How the data were processed

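RNA of 15 samples was hybridised to one-colour Agilent arrays, 1 sample to an array. The authors deposited 1 file of spot intensity per array, made with Agilent Feature Extraction 10.7.3.1 per the file headers. Background was subtracted in it, arrays were not normalized to each other, and probes are placed on mm9. In the authors' deposited value table, which is on a log2 scale, all columns share a median of 5.96 and correlate with their own array at r of at least 0.999, so it is quantile normalized, uncentred and runs in the direction of intensity. It was used as an alternative.

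Main values were log2 processed intensity minus each array's 75th percentile over non-control spots. Spots marked as outliers were dropped, and repeat spots averaged. Of 55681 probes, 31417 were named through accession or symbol with RefSeq (GRCm38.p6). The probe with the highest mean stood for a gene. Features well above background on at least 3 of 15 arrays were tested: 18386 genes and 15901 unnamed probes. limma 3.58.1 (R 4.3.3) fitted 4 group means with eBayes, and p-values are two-sided. Python 3.11.15, numpy 2.4.6, pandas 2.3.3, statsmodels 0.14.6 and matplotlib 3.10.9 were also used. Arrays lay on 2 slides, each scanned as 1 session. The fit was tested on simulated data with independent noise, the same spread for every feature and no slide or position effect. That test does not cover such effects. The number of arrays limits the precision.

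Groups came from the labels. The replacement array, called ATII BAPN replicate 5, was placed by its treatment label. Fibroblast BAPN replicate 3 and ATII BAPN replicate 2 were not analysed here. Named genes are those past the threshold that also pass with slide as a block and after the position correction. None did, so the list was filled, up to 10 in each direction, with genes measured on at least 3 arrays of each group that had the smallest unadjusted p. Every lysyl oxidase is named as well. The comparison, the 46 gene lists and the named rule were chosen with earlier results of these data known. Lists are described by counts and medians without a test. Of each list, the members shown with values are among those with the smallest p, except Hsp90b1, which is shown beside its promoter. The alternatives were slide, spot position, background correction, scaling, filter, floor, array weights, trend, replicate block and leaving out each array.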

Additional observations from a re-analysis of the deposited data

Results flagged for a closer look

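Of 75 groups of 4 arrays checked for 25 named genes, 5 had an array far from the other 3 by Dixon's test, and chance alone marks about 1 in 20 groups. Vat1 was 3.48 on ATII BAPN replicate 4, against 3.23 to 3.25 on the others. Matk was −0.29 on fibroblast vehicle replicate 4 (others −0.50 to −0.48), and Socs6 was −1.22 on the same array (others −0.91 to −0.86). Gmps was 1.56 on ATII vehicle replicate 4 (others 1.37 to 1.40). Loxl2 was 4.30 on fibroblast vehicle replicate 2 (others 5.78 to 5.91), and fibroblast BAPN replicate 2, in a group too small for the test, was at 4.32.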

How the results depend on the processing

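The 20 genes named for a difference in either direction kept their sign under every alternative run, which their choice by p of this difference favours. Of the 25 named genes' alternatives, 828 gave the same sign and call, 44 the same sign with a call and 3 another sign: Loxl2 without fibroblast BAPN replicate 2 (−0.18, in a range of −0.18 to 0.69 with 1 array left out), and Loxl4 under median scaling (−0.074) and without ATII BAPN replicate 1 (−0.035). The number of features with a difference was 84 on slide 1 alone (10 above 0 and 74 below), which held 1 fibroblast BAPN array, 1 after the position correction with or without slide as a block, 2 without a filter on dim features, 5 with floored values, 2128 with array weights, 1 on the right side of the columns, and 0 to 755 with 1 array left out. The fibroblast count was 341 on slide 1, 7627 on slide 2, 3039 after quantile normalization, 0 on the left side of the columns (limma; 1701 features at an unadjusted p under 0.05) and 1272 to 5821 with 1 array left out. The ATII count was 5603 on slide 2, where a single ATII BAPN array is assumed to vary like the other groups, 1 with floored values, 23 with array weights, 2 with an intensity trend and 0 with any 1 array left out. The correlation of both effects was 0.039 on slide 1, 0.75 on slide 2, 0.35 with normexp, 0.45 without a filter, 0.43 for features above background on all arrays, 0.38 with array weights, 0.32 after the intensity-dependent position correction, 0.32 with slide as a block as well, 0.36 on the left side, and 0.30 to 0.58 with 1 array left out. The cause of these shifts was not tested. The corrections by intensity and by side were chosen after seeing the data. Of 1656 alternatives for list medians, 92 moved by more than the spread between replicates.

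The deviations of same-numbered samples had r of −0.08, 0.10 and −0.04 in fibroblasts and 0.23, −0.15 and −0.15 in ATII cells. Vehicle and BAPN samples with unlike numbers on the same slide had r of −0.38 to −0.26 in fibroblasts. In ATII cells they had −0.25 to −0.15. These few values do not settle if the numbers pair the samples, and the main fit did not pair them. With the replicate number as a block within cell type, limma called 0 features for the fibroblast effect (8139 at an unadjusted p under 0.05), 0 with the position correction as well (8424 unadjusted), and 1720 with a block shared by both cell types. The number with a difference stayed 0 under each block. No scan batch other than the slide was found, so none was run. Dim features limit the precision: 17.8% of those under −2 have an interval inside 2-fold.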
